A study of Mus musculus with 4 samples.

Results

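The histone genes of RAW264.7 cells, a mouse macrophage cell line, were followed on 4 one-colour expression arrays. They were the genes that the array names Hist1h, Hist2h, Hist3h or Hist4h, 56 genes with 68 probes, together with 8 histone variant genes (H1f0, H1fx, H2afx, H2afz, H2afy, H2afv, H3f3a and H3f3b) with 17 probes. These 64 genes and 85 probes were chosen by name, out of 37074 genes and 56605 probes on the array. The wild-type line and an Mfp2-/- derivative, in which the peroxisomal enzyme gene Hsd17b4 was knocked out, were each measured without stimulation and after stimulation with LPS, a bacterial cell wall component that activates macrophages. Each of the 4 groups had 1 array. All groups shared the RAW264.7 background, and the sources used here state neither the dose and duration of LPS nor how the knockout was made and whether it was 1 clone.

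Replication-dependent histone genes supply the H1, H2A, H2B, H3 and H4 proteins that package newly made DNA, and their expression is tied to S phase. Their mRNAs end in a conserved stem-loop that is bound by the protein SLBP, in place of the poly(A) tail that other mRNAs carry. Most replacement variants are encoded by genes with ordinary polyadenylated mRNAs, are made through the cell cycle, and enter chromatin outside replication or at particular sites. This need not hold for every variant gene followed here, H2afx among them. The labelling kit named in the labels starts cDNA synthesis from poly(A), so its yield for a mRNA without a tail may differ from that of a tailed mRNA. The part of this step in the values was not tested.

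Signals are the scanner software's background-subtracted intensities, and differences are of log2 signal after subtraction of each array's 75th percentile. The 75th percentile lay between 462.872 and 566.559 on the 4 arrays, 47.4% to 49.7% of spots were well above background, and no spot was saturated. The 4 arrays lay on 1 slide and were scanned together, so array position and group cannot be told apart. The single probe for Hsd17b4 read 4482 in untreated and 2915 in LPS-treated wild-type cells, against 2545 and 1217 in the Mfp2-/- cells, a knockout-minus-wild-type difference of -0.89 and -1.21 log2. The probe was well above background in the knockout, and whether it lies in the altered part of the gene is not given. All 9 macrophage markers on the array were well above background on all arrays. So were 2 of 4 T cell markers (Cd3e and Cd4) and 1 of 3 neutrophil markers (S100a8), while 1 B cell, 1 epithelial and 1 fibroblast marker (Ms4a1, Cdh1 and Dcn) were above background on some arrays and the 3 erythroid markers on none.

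A difference of 2-fold or more between 2 arrays is reported as higher or lower, with no p-value because each group has 1 array. Probes spotted repeatedly gave a technical SD of 0.05 to 0.09 log2 for a difference between 2 arrays, which does not include the spread between cultures. Where a gene was above background on only 1 of 2 arrays, the difference is given as a bound. The only test across samples was an additive limma fit of LPS and genotype to all 4 arrays, with 1 residual degree of freedom and Benjamini-Hochberg adjustment over 17377 genes. It treats the wild-type and knockout arrays as repeats of the LPS effect, so a difference between the 2 LPS responses counts as noise. Its SEs and p-values are moderated, which means that each gene's variance is drawn towards a value estimated from all genes. They reflect only the spread between these 4 samples. In bulk RNA, fewer cycling cells and less histone mRNA per cell cannot be told apart.

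The probe sequences show which part of a histone mRNA was read. The stem-loop consensus was found in 7 of the 56605 probes (0.0124%), and 6 of those 7 belonged to Hist genes; no probe of a replacement variant held it. The 6 stretches are shown 5′ to 3′ in the sense of the mRNA, with the 16-base stem-loop in capitals.
Hist1h3a: ccaaaGGCTCTTTTCAGAGCCaca
Hist1h3g: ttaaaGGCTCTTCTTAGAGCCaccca
Hist1h3i: caaaaGGCTCTTTTCAGAGCCccctc
Hist1h2bf: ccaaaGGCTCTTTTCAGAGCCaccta
Hist2h2bb: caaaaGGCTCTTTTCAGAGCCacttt
Hist1h4m: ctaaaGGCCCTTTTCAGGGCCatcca
The outer bases of the capitals pair with each other to form the stem, and the middle is the loop. In wild-type cells all 6 were lower with LPS, by between -1.95 and -3.03 log2. In Mfp2-/- cells the same 6 probes lay between -1.30 and -2.59. The smallest falls, -1.95 and -1.30, were those of Hist1h4m, a dim probe whose falls were smaller with another background correction described below. Hist1h3a was below background on both LPS arrays, so its values of -2.05 and -1.69 are not measured differences. Its falls are given below as bounds.

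Other probes lay in coding sequence that near-identical genes share. Among all probes of the Hist genes, 18 pairs matched over at least 45 bases, 14 pairs among 8 H2A genes and 4 pairs among 4 H4 genes, and no pair crossed between histone classes. Each of the 4 H4 pairs involved a further probe of Hist1h4d or Hist1h4k, not the probe that represents that gene. Alignment of the 60-base probes for Hist1h2af, Hist1h2ak, Hist1h2an (all on chromosome 13) and Hist2h2aa2 (chromosome 3) shows how alike they are, with capitals for positions at which the 4 differ.
Hist1h2af: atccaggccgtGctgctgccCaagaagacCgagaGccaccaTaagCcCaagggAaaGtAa
Hist1h2ak: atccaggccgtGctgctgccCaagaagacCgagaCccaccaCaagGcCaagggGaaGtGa
Hist1h2an: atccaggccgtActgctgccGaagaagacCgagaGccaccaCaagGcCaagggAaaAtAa
Hist2h2aa2: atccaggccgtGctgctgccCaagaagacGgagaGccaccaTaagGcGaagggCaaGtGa
All 4 end in a stop codon, share 50 positions and differ at 10. Whether such a probe also binds mRNA of the other genes was not tested, so the 8 H2A genes, with LPS differences of -2.13 to -1.38 in wild-type cells, are given as a family. Of these, 6 also share at least 25 bases with the probe of H2afj, a replication-independent H2A variant outside the selection, which fell by 1.31 ± 0.13 (SE) with LPS (limma adjusted p = 0.0304).

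With LPS, replication-dependent histone genes were lower in both genotypes. In wild-type cells 38 of the 49 measured Hist genes were at least 2-fold lower and 3 were at least 2-fold higher, where 8.39% of all 18213 measured genes were lower and 9.97% higher. In Mfp2-/- cells 37 of 48 were lower and 0 were higher, against 12.4% and 11.1% of 18402 genes. The median Hist gene differed by -1.95 log2 in wild type and by -1.83 in the knockout, while the median of all genes was 0.03 and -0.00. In the additive limma fit, 36 of 48 Hist genes tested fell with LPS at an adjusted p below 0.05 and 0 rose, beside 10.6% of all genes lower and 11.1% higher. Alternative settings of the fit gave 35 to 38 lower and 0 to 2 higher. An unadjusted limma p below 0.05, in either direction, was found for 42 of the 48 Hist genes and for 7714 of all 17377 genes. Hist1h2bq, Hist1h3d and Hist2h3c1 were among the 42 and were higher with LPS. H2A genes with near-identical probes are counted separately in all these totals, so the genes are not independent counts.

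**Figure D1:**
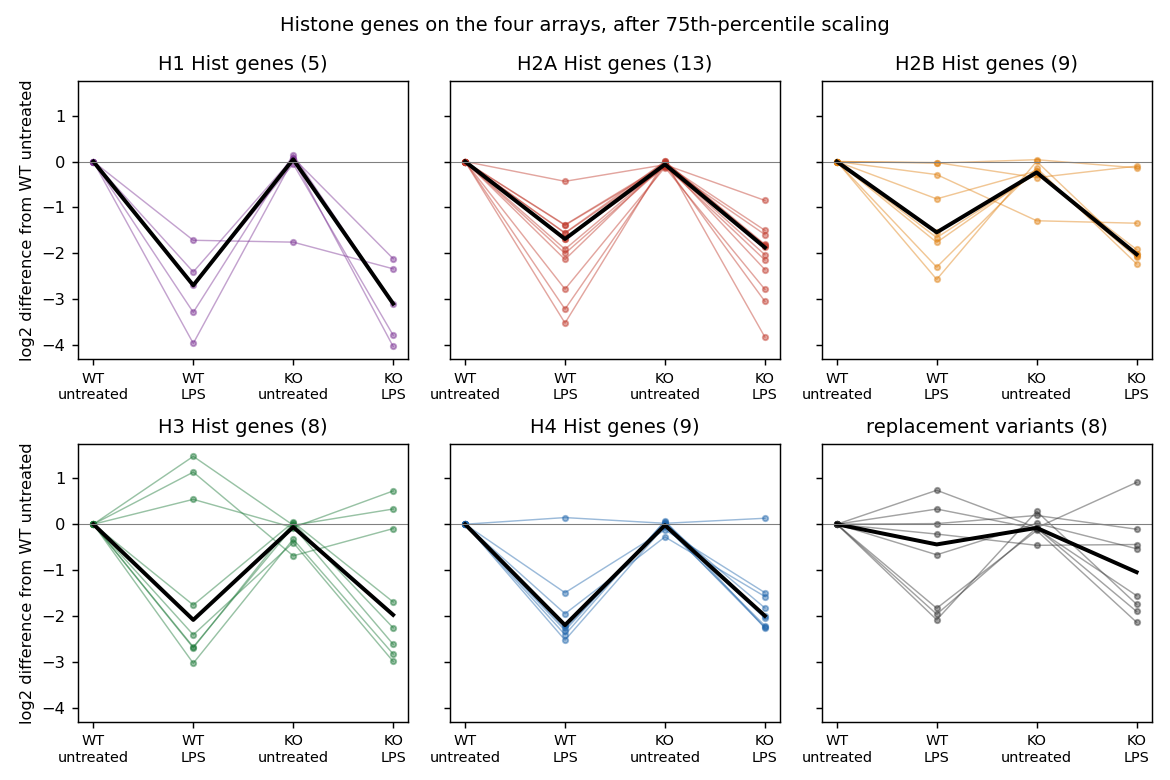
Each thin line is a gene above background on all 4 arrays, drawn as its log2 difference from the untreated wild-type array (vertical axis) on the 4 arrays (horizontal axis), with the class median in black and 1 array a group; lines only connect values of a gene. The medians of the 5 classes of Hist genes dip on both LPS arrays, though some H2B, H3 and H4 genes do not. The replacement variants split: with LPS in wild type 5 of 8 are lower than untreated, 3 of them by 2-fold or more.

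The linker histone genes, whose H1 products bind DNA between nucleosomes, had the lowest class median, -2.70 in wild type and -3.24 in the knockout over 5 genes, with a range of -3.96 to -1.71 in wild type that overlaps the other classes. Hist1h1b read 15714 in untreated and 901 in LPS-treated wild-type cells, and 17078 and 830 in Mfp2-/- cells. Both LPS arrays were thus far below both untreated arrays, 15.5-fold in wild type and 16.8-fold in the knockout. In the fit it fell by 4.02 ± 0.12 log2 (SE; limma adjusted p = 0.0256), the lowest value of all Hist genes. Hist1h1d read 1198 and 110 in wild type and 1396 and 121 in the knockout, and Hist1h1e read 6593, 1110, 7337 and 1309 on the arrays in the same order. Hist1h1a read 530 and 72.9 in wild type and 537 and 33.1 in the knockout, so the 2 untreated arrays were close together and the LPS arrays apart. Of the 5 H1 genes measured, 4 fell in the fit; the exception, Hist1h1c, is described with the genotypes.

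H2A and H2B form the dimers that flank the H3-H4 core of the nucleosome. Of 14 H2A genes tested, 13 fell with LPS. These are not independent measurements, because 8 of the genes belong to the family of near-identical probes. The probes of Hist1h2ai, Hist1h2an and Hist1h2ao also overlap in position on chromosome 13. Hist1h2ab read 41389 and 3223 in wild type and 44167 and 2518 in the knockout, a difference of -3.52 and -3.84 log2, with no overlap between treated and untreated arrays. Hist1h2ah, with the brightest H2A probe, read 188071, 52087, 180481 and 46023 in the same order and lies within the family of shared probes. Hist1h2aa, second in brightness and of the same family, differed by -1.56 and -1.81. Hist2h2ab was above background only on the untreated arrays. LPS thus put it at least 2.22-fold lower in wild type and at least 3.60-fold lower in the knockout. With another background correction, named normexp, the differences were -0.67 and -0.81, short of 2-fold. That correction adds an offset of 50 to every spot, which by itself makes differences at low signal smaller, here and for the other dim genes below. The exception among H2A genes was Hist1h2ae, whose probe begins inside the stem-loop and which differed by -0.43 and -0.78, with an adjusted p of 0.0828 by limma. Most of that probe thus lies downstream of the stem-loop, and it read only 89.9 and 59.4 in wild type. Which transcripts it reads was not tested, so the value may not be that of the stem-loop mRNA.

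H2B genes were the most mixed class. Of 11 tested, 5 fell and 0 rose. Hist1h2bb, second in brightness, read 4105 and 1257 in wild type and 3589 and 870 in the knockout. Hist1h2bn, the brightest, read 5550, 4867, 4572 and 4448, values with little distance between treated and untreated arrays. Hist1h2bc and Hist1h2be also differed by less than 0.3 log2 with LPS in both genotypes. Hist1h2bq went the other way from a low level, 16.6 and below background in untreated wild type against 49.6 with LPS (at least 2.49-fold higher, and 0.66 log2 with normexp correction); in the knockout it read 34.4 and 53.2. The pseudogene Hist3h2bb-ps was above background in untreated wild type only, at 67.7, and at least 2.74-fold lower with LPS, a difference that was -0.73 with normexp correction.

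Among H3 genes, which encode the replication-coupled H3.1 and H3.2, 6 of 9 fell. Hist1h3c read 7248 and 1014 in wild type and 7357 and 1018 in the knockout. Hist2h3b read 3340, 461, 3599 and 601 in the same order. Hist1h3a, at 63.9 and 61.2 without LPS, was below background with LPS, so its fall was at least 2.59-fold and 2.53-fold; with normexp correction the differences were -0.63 and -0.49. The exceptions were Hist1h3d, Hist2h3c1 and Hist2h3c2. Hist1h3d was the brightest H3 probe, at 34688 and 44989 in wild type and 34706 and 49226 in the knockout, 0.54 and 0.80 higher with LPS (limma adjusted p = 0.0621). Its profile resembled that of H3f3b, and whether its probe reads Hist1h3d transcripts alone was not tested. Hist2h3c1 and Hist2h3c2, both at low signal, were 1.13 and 1.48 higher with LPS in wild type and 0.59 and 0.35 higher in the knockout; with normexp correction their wild-type values were 0.60 and 0.87.

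The H4 genes encode the same protein and had similar values. Of 9 tested, 8 fell, with a median of -2.20 in wild type and -2.03 in the knockout. Hist1h4d, measured on 10 spots an array, read 105765 and 20562 in wild type and 111633 and 25695 in the knockout. Hist1h4k read 54759, 9818, 59899 and 11812. In the fit it fell by 2.18 ± 0.14 (limma adjusted p = 0.0263). Hist1h4m fell too, from low levels of 99.8 and 86.7 to 23.0 and 28.8; with normexp correction its differences were -0.83 and -0.54. Hist1h4h, between 54.4 and 61.7 on all arrays, was the exception, with 0.14 and 0.11.

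Hist genes inside and outside the large cluster were counted apart. On chromosome 13, which carries that Hist1 cluster, 28 of 36 Hist genes tested fell, and on other chromosomes 8 of 12 fell, with medians of the fitted LPS term at -1.84 and -1.95. Between the 2 wild-type arrays, 29 of the 36 Hist genes of chromosome 13 were at least 2-fold lower with LPS and 1 was higher. By the same measure, 63 of the other 672 measured genes of chromosome 13 were lower and 58 higher, with a median LPS difference of -0.07. The difference between the Hist genes and their neighbours was not tested.

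**Figure D2:**
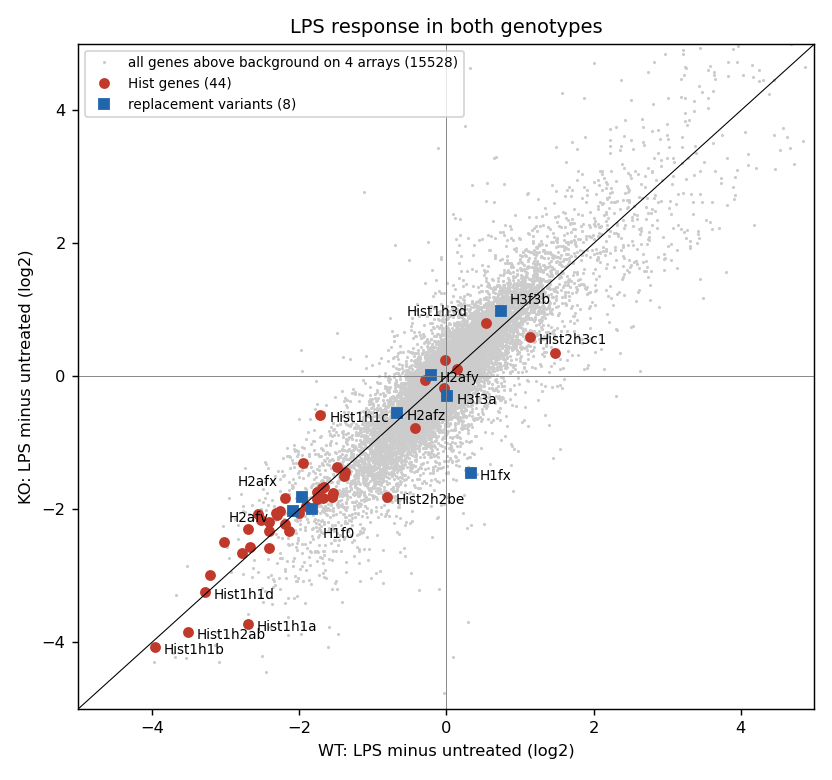
The LPS response (log2, LPS minus untreated) of wild type is on the horizontal axis and that of Mfp2-/- on the vertical axis; grey points are all 15528 genes above background on all 4 arrays, of which 60 lie outside the axes, and the diagonal marks equal responses. Most Hist genes (red) sit at the lower left near the diagonal, while the 8 replacement variants (blue) spread from H2afv to H3f3b and H1fx lies off the diagonal.

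The replacement variants did not share 1 direction. In wild type 3 of 8 were at least 2-fold lower with LPS and 0 higher, with a median of -0.44; in the knockout 4 of 8 were lower, with a median of -1.003. The Hist median minus the replacement median was thus -1.51 log2 in wild type and -0.83 in the knockout. In the fit 3 of 8 fell and 1 rose. Both counts stand beside the background percentages given above for all genes, and 8 genes are few.

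H2afv, H2afx and H1f0 fell with the replication-dependent genes. H2afv, an H2A.Z gene, read 12572 and 2650 in wild type and 16049 and 3230 in the knockout, and fell by 2.05 ± 0.12 (limma adjusted p = 0.0256). H2afx, whose product is phosphorylated around DNA breaks, read 16293, 3734, 16183 and 3755. The 2 genotypes read nearly the same, and it fell by 1.89 ± 0.13 (limma adjusted p = 0.0263). H1f0, a linker histone known from resting and differentiated cells, read 126 and 31.6 in wild type and 121 and 24.7 in the knockout, and fell by 1.91 ± 0.13 (limma adjusted p = 0.0263). At this low signal the normexp correction, whose offset makes such differences smaller, gave -0.85 and -0.87, so the 2-fold call depended on that setting.

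H2afz, the other H2A.Z gene, was lower by a smaller amount, reading 92578 and 52028 in wild type and 98577 and 54966 in the knockout over 10 spots an array. Its limma adjusted p was 0.0594, and it was below 0.05 in the 4 other settings of the fit. H3f3a and H3f3b encode the same H3.3 protein but differed in direction. H3f3b read 54227 and 80639 in wild type and 54083 and 87575 in the knockout, so both LPS arrays were above both untreated arrays, and it rose by 0.86 ± 0.14 (limma adjusted p = 0.04425). With quantile normalization the rise had an adjusted p of 0.06274 and was no longer called. A probe 1451 bases further downstream gave 0.69 and 0.997, beside 0.74 and 0.99. H3f3a read 40108, 36081, 48140 and 31953, with differences of 0.01 and -0.30. H2afy, the macroH2A1 gene, read 13970, 10732, 10684 and 8838, and its differences of -0.21 and 0.02 had an adjusted p of 0.6035 by limma.

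H1fx, a replacement linker histone, was the variant whose LPS response differed between genotypes. It read 2375 and 2661 in wild type and 2331 and 695 in the knockout, so the LPS-treated knockout stood apart from the other 3 arrays. The response was 0.33 log2 in wild type and -1.45 in the knockout, a difference of -1.79 that has no test with 1 array a group. The probe was designed on an expressed sequence with no genome position in the files, and the other H1fx probe was below background on all arrays. Alternatives moved the difference only between -1.67 and -1.79.

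**Figure D3:**
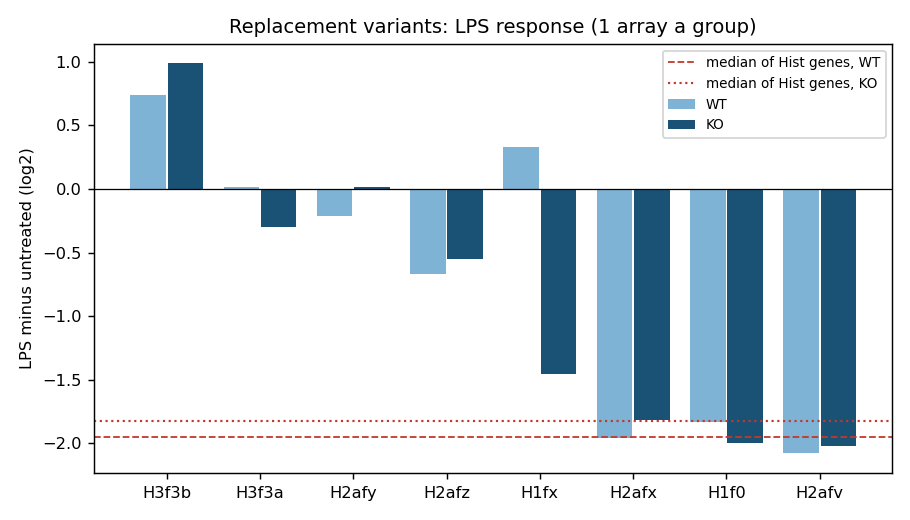
Bars give the LPS response (log2, LPS minus untreated, 1 array a group) of the 8 replacement variants in wild type (light) and Mfp2-/- (dark), and the red lines give the median of the Hist genes, -1.95 (dashed, wild type) and -1.83 (dotted, Mfp2-/-). H2afx, H1f0 and H2afv lie near the Hist medians and only H2afv is below both, H3f3b is above 0 in both genotypes, and H1fx is above 0 in wild type only.

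Several histone genes were read by more than 1 probe, and the probes did not always move together. Of 12 Hist genes with several probes, 12 further probes were on the array, 6 of them above background on all arrays; 4 of those 6 had the sign of the main probe in wild type and were within 0.5 log2 of it. Hist1h4d and Hist1h4k were among these. For Hist2h2bb, the stem-loop probe read 3411 and 513 in wild type and 3593 and 700 in the knockout, while a probe 8698 bases downstream read 108 and 213, and 76.7 and 137, 1.15 and 1.12 higher with LPS. For Hist3h2a, the main probe read 33553, 3223, 33820 and 3496, and a probe 567 bases downstream read 556, 523, 479 and 271, a difference of 0.08 in wild type against -3.21. Averaging the probes of Hist2h2bb gave -0.71 and -0.47 in place of -2.57 and -2.07. Which transcripts the downstream probes read was not tested.

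For H2afy, 3 of the 4 further probes were within 0.3 log2 of the main probe in wild type. A probe further upstream, at mm9 chr13:56189613-56189672, read 245 and 75.7 in wild type and 269 and 60.5 in the knockout, with differences of -1.53 and -1.86. Another, at 1269 in untreated wild type, read 560 in the untreated knockout, 1050 in LPS-treated wild type and 854 in the LPS-treated knockout.

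**Figure D4:**
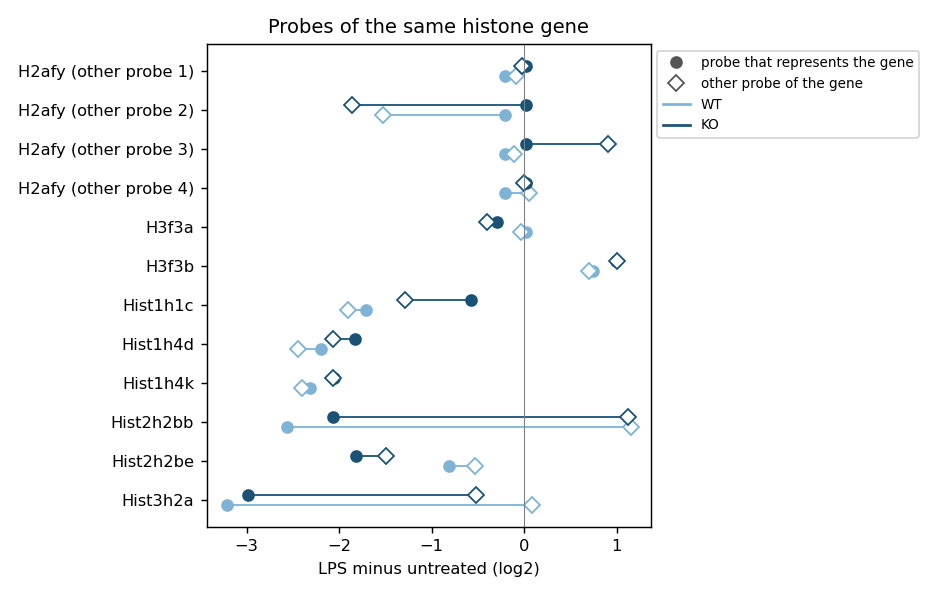
For each histone gene with more than 1 probe above background on all arrays, the LPS response (log2) of the probe that represents the gene (filled circle) is joined to that of another probe of the gene (open diamond), in wild type (light) and Mfp2-/- (dark). The 2 ends lie close together for H3f3b, Hist1h4d and Hist1h4k, and far apart for Hist2h2bb and Hist3h2a.

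Fewer histone genes passed 2-fold between the genotypes than between treated and untreated cells. Without LPS, 3 of the 49 measured Hist genes were at least 2-fold lower in Mfp2-/- cells and 0 were higher, beside 4.05% and 3.01% of all genes, and the median difference was -0.06. With LPS, 5 of 46 were lower and 0 higher, beside 4.64% and 1.67%, and the median was -0.09. None of the 8 variants passed 2-fold without LPS; with LPS, H1fx did. In the limma fit no Hist gene and 0.0% of all genes in either direction passed an adjusted p of 0.05 for genotype. At an unadjusted limma p below 0.05 for genotype there were 1688 of 17377 genes, and 5 of the 48 Hist genes tested. With a trended prior limma called 54 genes lower and 18 higher, and no histone gene.

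The 3 genes lower in the untreated knockout were Hist1h1c, Hist1h2bc and Hist3h2bb-ps. Hist1h1c and Hist1h2bc lie on chromosome 13. Of the other 688 measured genes of that chromosome, 47 were lower and 12 higher in the untreated knockout, with a median of -0.16. With LPS, 44 of 646 were lower and 12 higher, with a median of -0.18. The medians of all genes were 0.03 and 0.01. Whether this shift bears on the Hist genes was not tested. Hist1h1c, an H1 gene with a moderate signal, read 1869 and 507 in wild type and 582 and 318 in the knockout, so untreated wild type stood apart from the rest. The untreated difference was -1.75, and with LPS it was -0.62. Its second probe, 688 bases upstream and stopping inside the stem-loop, read 680 and 162 in wild type and 429 and 143 in the knockout. For that probe the genotype differences were -0.74 and -0.12, short of 2-fold, and the LPS responses -1.91 in wild type and -1.29 in the knockout. The probe that represents Hist1h1c thus lies downstream of the stem-loop, and its 2-fold call rests on sequence past it. Which transcripts it reads was not tested. Hist1h2bc read 2015 and 1475 in wild type and 867 and 682 in the knockout, with both knockout arrays below both wild-type arrays and differences of -1.29 and -1.06. In the fit its genotype term was -1.17 ± 0.14 (limma adjusted p = 0.2126). Hist3h2bb-ps was at 67.7 in wild type and below background in the knockout, at least 3.52-fold lower; with normexp correction the difference was -0.66, which leaves 2 genes past 2-fold.

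With LPS the knockout was lower for Hist1h1a (72.9 against 33.1), Hist1h2bc, Hist2h2be (336 against 140), Hist2h3c1 (71.7 against 29.5) and Hist2h3c2 (120 against 52.2). The 5 ranged from -1.06 to -1.23, close to the threshold, and normexp correction put all 5 below 2-fold, as quantile normalization did for Hist1h1a. Before that correction, a further probe of Hist2h2be, above background on all 4 arrays, gave -1.36. A further probe of Hist2h3c2, above background on 3 arrays, gave -1.21. Both readings come from the same arrays. The difference between the 2 LPS responses passed 2-fold lower for 3 of 44 Hist genes and higher for 1, beside 2.99% and 1.64% of all genes. The 3 were Hist1h1a, Hist2h2be and Hist2h3c2, and the 1 was Hist1h1c; with normexp correction 0 were lower, and with the mean of its probes Hist1h1c was at 0.88, short of 2-fold.

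**Figure D5:**
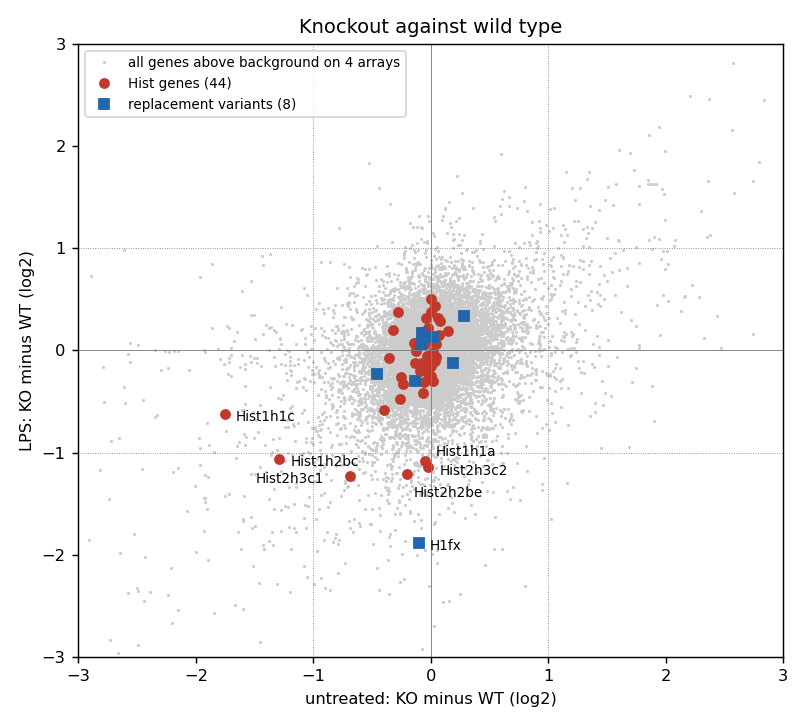
The knockout-minus-wild-type difference (log2) without LPS is on the horizontal axis and with LPS on the vertical axis, for Hist genes (red), replacement variants (blue) and all genes above background on all arrays (grey; 40 lie outside the axes); dotted lines mark 2-fold. Most histone genes lie near 0 on both axes, and 7 are labelled past 2-fold, all on the lower side.

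The genes that make and place histones were followed as lists. Of 17 genes for histone mRNA transcription and 3′ processing, 4 fell with LPS in the limma fit and 0 rose. The 4 were Npat, a coactivator of histone genes, Zfp473, a component of the 3′ processing machinery, Eri1, an exonuclease that acts on histone mRNA, and Pou2f1, which binds the octamer motif. Zfp473 read 109 and 24.5 in wild type and 218 and 52.5 in the knockout. Slbp, the stem-loop binding protein, read 1375, 961, 1422 and 812, with an adjusted p of 0.1018 by limma.

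Of 22 histone chaperone and assembly genes, 5 fell and 2 rose. Those that fell included Asf1b, at 17904, 4584, 19876 and 5598 on the arrays in the same order, and Chaf1a, the large subunit of the replication-coupled assembly factor. Daxx, a chaperone of H3.3, rose from 6901 to 27386 in wild type and from 7218 to 20890 in the knockout, by 1.99 ± 0.15 in the fit (limma adjusted p = 0.0270). Hira, the other H3.3 chaperone, had a difference of -0.43 and -0.53 and an adjusted p of 0.0817 by limma. Of 26 DNA replication genes tested, 19 fell and 0 rose, with a median of -1.35. They included Tk1, Ccna2 and Pole; Ccne2 was below background on all arrays, and Pcna was fitted at -0.75 ± 0.19 without passing (limma adjusted p = 0.0797). Of 7 histone variants outside the selection on the array, 5 were tested and only H2afj fell; the centromeric H3 gene Cenpa, with differences of -1.72 and -0.91, had an adjusted p of 0.0580 by limma. All lists stand beside the same 10.6% and 11.1% of all genes, and their part in the histone values was not tested.

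Promoters of the members were read from RefSeq (GRCm38.p6), 250 bases before to 50 bases after the start, and 56 of the 64 members had an entry. The motifs searched on both strands were the CCAAT box (CCAAT), the TATA box (TATAAA), the octamer (ATTTGCAT) and an E2F-type site (TTTNNCGC). CCAAT was in 43 of 49 Hist promoters (87.8%) and in 41.1% of 27025 promoters of all genes, and TATAAA in 29 (59.2%) against 15.7%. The octamer was in 13 Hist promoters (26.5%), 7 H2A and 6 H2B, against 1.97% of all, and in no H1, H3 or H4 promoter. The E2F-type site was in 13 Hist promoters against 5.93% of all, and in 0 of 7 replacement variants. Neighbouring H2A and H2B genes that face away from each other share promoter sequence, so these are not independent counts, and a match is a description, not a site. The 160 bases before the start are shown for 4 genes that fell and for H3f3b, which rose, with the motifs in capitals.
Hist1h1b, chr13:21780626-21780785, minus strand: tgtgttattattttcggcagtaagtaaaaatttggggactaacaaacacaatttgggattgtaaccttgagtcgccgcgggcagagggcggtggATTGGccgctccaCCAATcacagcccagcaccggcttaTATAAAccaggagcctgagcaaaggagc
Hist1h2ab, chr13:23750928-23751087, plus strand: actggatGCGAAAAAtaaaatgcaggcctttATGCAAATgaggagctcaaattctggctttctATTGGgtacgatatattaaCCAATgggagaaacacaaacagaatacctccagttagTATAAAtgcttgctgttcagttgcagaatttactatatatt
Hist1h2bb, chr13:23746574-23746733, plus strand: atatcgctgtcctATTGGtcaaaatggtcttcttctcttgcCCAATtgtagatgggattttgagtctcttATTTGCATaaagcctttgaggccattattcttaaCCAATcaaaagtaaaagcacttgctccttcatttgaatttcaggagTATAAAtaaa
Hist1h4k, chr13:21750554-21750713, minus strand: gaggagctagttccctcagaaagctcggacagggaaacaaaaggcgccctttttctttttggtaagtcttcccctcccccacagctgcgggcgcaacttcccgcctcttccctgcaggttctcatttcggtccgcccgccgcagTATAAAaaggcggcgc
H3f3b, chr11:116024505-116024664, minus strand: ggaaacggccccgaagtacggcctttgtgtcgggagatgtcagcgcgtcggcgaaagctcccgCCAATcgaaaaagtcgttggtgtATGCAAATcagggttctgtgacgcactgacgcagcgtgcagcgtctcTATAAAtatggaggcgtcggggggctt
Hist1h1b held a pair of CCAAT boxes and a TATA box, Hist1h2ab and Hist1h2bb held CCAAT, TATA and octamer letters, Hist1h2ab with an E2F-type match as well, and Hist1h4k held the TATA box without CCAAT. H3f3b held CCAAT, octamer and TATA letters and was the only member of the 7 replacement promoters with an octamer.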

How the data were processed

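One-colour (Cy3) arrays were run on total RNA, 1 array for each of 4 groups, per the labels. The authors deposited scanner files whose spot intensities had been background-subtracted and detrended. The file headers name Feature Extraction 10.7.1.1 and the submitters' processing notes 9.5.1.1. The deposited flags (well above background, saturated, outlier) are scores of 0 or 1 for each spot, and the deposited series table holds linear intensities whose normalization is unstated; when the scanner intensities were quantile normalized, 52805 to 53106 of its 56605 probes agreed to 0.01 log2.

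Here log2 intensities were scaled by each array's 75th percentile, outlier spots were left out and spots of a probe averaged. Of several probes of a gene, the one above background with the highest mean signal represents it. A comparison took in genes that passed background on either array, and called them at 2-fold. The additive fit used limma 3.58.1 (R 4.3.3) and required background to be passed on 2 or more arrays; Python 3.11.15 did the rest. The calls and the fit were tested on simulated data. Alternatives were normexp correction (offset 50), quantile, median and spike-in scaling, the series table, other filters, probe averaging and other thresholds.

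Members and lists were chosen with earlier results of these data known. Named genes are the 8 variants, the 2 brightest Hist genes of each class, the 3 highest and 3 lowest Hist genes of each comparison and those with a bound of 2-fold; of each list, the 3 with the largest wild-type LPS difference and 8 preset genes. Further members, such as those read by several probes, the stem-loop probes and the exceptions of a class, were named after their values were seen. Probe positions are mm9 from the files and promoters GRCm38.p6 from RefSeq; all 64 members matched RefSeq's gene table. Protein and transcript sequences were not used here.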

Additional observations from a re-analysis of the deposited data

Results flagged for a closer look

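H1fx stood out because its LPS response had opposite signs in the genotypes: 0.33 log2 in wild type and -1.45 in Mfp2-/- cells, a difference of -1.79. The difference was not tested, since each group has 1 array. It rests on the LPS-treated knockout array, at a signal of 695 against 2331 to 2661 on the other 3, and on 1 probe, because the other H1fx probe was below background on every array.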

How the results depend on the processing

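No paired analysis was possible beyond the additive limma fit, which compares LPS within each genotype, because the groups have 1 array each and share no numbered replicates. No called value reversed under any alternative. For the LPS response of wild type, the Hist median of -1.95 was -1.60 with normexp, -2.07 with quantile normalization and with the series table, -2.19 with spike-in centring, -1.81 with the mean of a gene's probes and -1.74 without a filter. Its distance from the replacement median, -1.51, was -1.15 with normexp, -1.42 with quantile normalization and with the series table, -1.29 with the mean of probes and -1.30 without a filter. For the knockout, the median of -1.83 was -1.68 with normexp, -2.05 with quantile normalization and with the series table, -1.72 with median centring and -2.07 with spike-in centring, and the distance of -0.83 was -0.98 with normexp and -0.92 with the series table. At 4-fold, 21 Hist genes were lower in wild type and 20 in the knockout. Without LPS, the knockout-minus-wild-type median was 0.0218 with median centring, and the 3 genes past 2-fold were 2 with normexp, 6 without a filter and 0 at 4-fold. With LPS, median centring gave a median of 0.0849 and 2 genes, normexp and 4-fold 0 genes, and the mean of probes a distance of -0.18. For the difference of the responses, the count of 3 lower genes was 0 with normexp and at 4-fold, and 1 with quantile normalization, median centring, the series table and the mean of probes, which also lost the 1 higher gene, Hist1h1c. Of 158 alternatives to these summary values, 124 stayed within the limits set for them, but part of these could not have moved. Another fold threshold leaves every median and distance as it was, and median and spike-in centring leave every distance as it was. A filter for all arrays was already in place for the difference of the responses. The tally is therefore no measure of how stable the values are. Spike-in centring put the median LPS response of all genes at -0.21 in wild type and -0.24 in the knockout, from 0.03 and -0.00, and median centring put it at 0.11 in the knockout and put the median difference between the genotypes with LPS at 0.18. The limma LPS term called 1843 genes lower and 1936 higher, 3090 and 3362 with a trended prior, and 2882 and 3095 with normexp. Genes near background, such as Hist1h3a, Hist1h4m and H1f0, passed 2-fold as extracted and not with normexp, so signal over background limits those calls. The offset of 50 in normexp by itself makes differences at such signals smaller. Its share, and the causes of these shifts, were not tested.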
